A study of Mus musculus with 35 samples.

Results

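The genes described here are 9 myelin and oligodendrocyte genes of the mouse, Mbp, Mobp, Cldn11, Mal, Cnp, Mag, Mog, Opalin and Olig2. They were chosen by symbol and matched to the counted loci through the annotation table that pairs loci with gene symbols, which gave 9 of 55356 counted loci. All 9 passed the filter on low counts and were among the 29911 loci tested. Total RNA came from adult C57BL/6J mice of both sexes, and no treatment or engineered allele is named for any sample. The 29 RNA-seq libraries covered female and male brain, female and male cerebellum, female and male heart, female and male colon, female gonad (ovary) and male gonad (testis), with 3 libraries in each of the 10 groups except male heart, which had 2. Whether libraries of different tissues came from the same animal is not given in the labels, so the p-values measure the spread between these libraries. The 6 full-length (Iso-seq) flow cells of the series entered only through the gene models on which the reads were counted. In bulk tissue, fewer cells of a type and less RNA per cell cannot be told apart.

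Oligodendrocytes are the glial cells that wrap the axons of the central nervous system in myelin, a compacted stack of membrane rich in cholesterol and galactolipids. Compaction depends on basic proteins at the cytoplasmic faces of the membrane, tight junction strands of claudin-11 seal the spiral, and adhesion proteins face the axon. Precursor cells mature into myelinating cells under transcription factors that include Olig2, and white matter tracts are the richest source of myelin RNA. Some of these proteins also work elsewhere, as claudin-11 does in the barrier between Sertoli cells of the testis and Mal does in the apical transport of polarized epithelia.

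The libraries held 11742417 to 36194255 assigned counts, and the 12 neural libraries 19075669 to 36194255. No 2 libraries of a group held identical values among the 28 pairs compared. The sets of defining markers followed the labels, because the 7 cerebellar neuron genes tested summed to 1580 to 2730 FPKM in cerebellum and 50.1 to 66.8 FPKM in brain, and the 8 forebrain neuron genes to 690 to 1200 FPKM in brain and 152 to 229 FPKM in cerebellum. FPKM is the count per kilobase of the combined exons of a locus scaled to the assigned counts of the library, and it is the scale used for comparing levels between genes. Ttr, a defining gene of the choroid plexus that was looked at after the data were seen, ranged from 15.7 to 1530 FPKM over the 6 brain libraries and from 1010 to 3820 FPKM over the 6 cerebellum libraries.

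The 9 genes differed in how many transcript models the counts rest on (GRCm38.p6). Mbp, which encodes the main basic protein of compact myelin, lies on chromosome 18 from 82475225 to 82585635 (plus strand) and had 18 Iso-seq models with 1 to 7 exons. Of these, 11 began within 10 bases of the common start and 2 began upstream of it and ended before the last exons, and an upstream start is known for the Golli transcripts of this gene. Mobp, which encodes a smaller basic protein of myelin, had 19 models on chromosome 9 from 120149741 to 120182200 (plus strand), with lengths from 782 to 3589 bases. The median over the 13045 Iso-seq loci was 2 models, and 264 loci had 18 or more. Cnp, encoding a phosphodiesterase of non-compact myelin, had 8 models on chromosome 11 from 100574973 to 100582869 (plus strand). Mag, encoding an adhesion protein of the membrane next to the axon, had 5 on chromosome 7 from 30899183 to 30914872 (minus strand). Cldn11 (chromosome 3, 31149946 to 31165311, plus strand) and Mal (chromosome 2, 127633228 to 127656255, minus strand) had 2 models each. Mog, a surface protein of the outermost myelin layer (chromosome 17, 37010745 to 37023281, minus strand), and Opalin, a glycoprotein of the oligodendrocyte membrane (chromosome 19, 41063420 to 41077072, minus strand), had 1 each. Olig2 (chromosome 16, 91225457 to 91228677, plus strand) had no Iso-seq model and was counted on its ENSEMBL transcript of 2530 bases. The counts are sums over the models of a locus, so the models of Mbp or Mobp cannot be separated in them. Exons of Mobp shared 79 bases with Gm38642 on the same strand. Exons of Cnp shared 50 of their 3891 bases with Dnajc7 on the opposite strand, and whether reads were assigned by strand is not given in the sources used here.

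In brain the level followed a steep order, from Mbp at 431 ± 141 FPKM (SD, n = 6) through Mobp at 153 ± 43.4, Cnp at 109 ± 28.4, Mal at 85.5 ± 25.7, Cldn11 at 48.5 ± 14.0, Mag at 45.9 ± 20.4, Mog at 38.8 ± 13.5 and Opalin at 30.5 ± 7.99 to Olig2 at 10.3 ± 2.44 FPKM. Myelin structural proteins stood above the lineage transcription factor in every one of the 6 libraries. Neighbours in this order that changed places in some library were Cnp and Mal (Cnp higher in 5 of 6), Cldn11 and Mag (Cldn11 higher in 4 of 6) and Mag and Mog (Mag higher in 5 of 6). In cerebellum Mbp led again at 565 ± 233 FPKM (n = 6), followed by Mobp at 195 ± 83.1 and Cnp at 176 ± 29.8, which exceeded each other in 3 libraries each. Mal (79.5 ± 25.5 FPKM) and Mag (75.9 ± 20.7) also exceeded each other in 3 libraries each, and Opalin (23.9 ± 8.29) and Olig2 (8.94 ± 2.46) came last. With the longest transcript in place of the combined exons, the brain level of Mbp was 610 FPKM and that of Mobp 276 FPKM. The 9 genes took 0.356% to 0.751% of all counts in brain and 0.32% to 0.998% in cerebellum, most of it from Mbp.

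**Figure D1:**
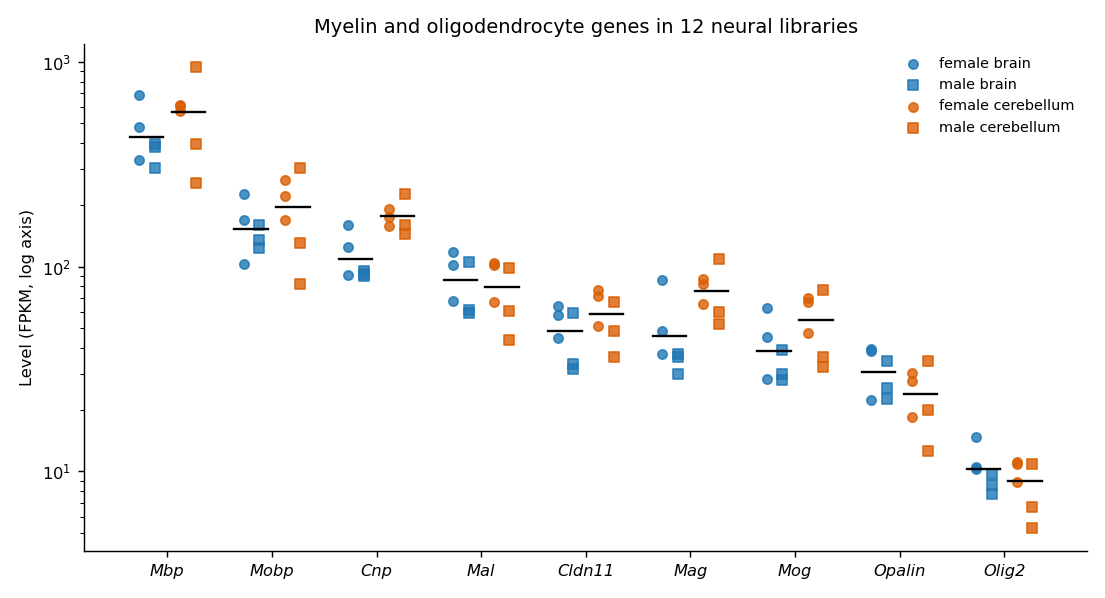
Level of each of the 9 genes in the 12 neural libraries (FPKM, log axis). Points are libraries (circles female, squares male, blue brain, orange cerebellum) and black lines are means over 6 libraries. The ranges of brain and cerebellum overlap for all 9 genes, and Mbp spans 254.5 to 941.9 FPKM over the 12 libraries.

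The first comparison asked whether the 9 genes differ between brain and cerebellum. Cnp was lower in brain than in cerebellum, and it was the only one of the 9 that passed the test. Mag, Mog, Mbp, Mobp and Cldn11 had lower values in brain and Mal, Olig2 and Opalin higher ones, but these 8 differences did not pass. Of all 29911 loci tested, 26.1% passed in this comparison, 15.3% higher in brain and 10.8% lower, so 1 of 9 is not above the background. Of the loci that passed, 58.5% were higher in brain, against 44.7% when libraries were scaled by their totals only. Here and in the other comparisons, p-values came from the quasi-likelihood test of edgeR, were adjusted over all loci by the method of Benjamini and Hochberg and were called under 0.05, with the sexes weighted equally.

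Cnp stood at 160.4, 90.6 and 124.1 FPKM in the 3 female brain libraries and at 95.6, 89.4 and 92.5 FPKM in the 3 male ones. In cerebellum it stood at 175.2, 190.0 and 157.8 FPKM in females and at 160.2, 143.7 and 227.1 FPKM in males. Of the brain libraries, female replicate 1 alone reached into the cerebellar range. The log2 difference, brain minus cerebellum, was -0.58 ± 0.165 (SE, adjusted p = 0.0101 by edgeR), a 1.49-fold lower level. Cnp kept its call under all 36 alternatives tried, with adjusted p from 0.00115 to 0.0432.

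Mag ranged from 29.9 to 85.8 FPKM in brain (median 37.6) and from 52.1 to 108.3 FPKM in cerebellum (median 73.9). The brain libraries other than female brain replicate 1 lay below the lowest cerebellar one, and female brain replicate 1 lay near the top. The log2 difference was -0.64 ± 0.248 (SE), larger than that of Cnp, but its adjusted p by edgeR was 0.0573. Mag passed under 13 of the 36 alternatives, with adjusted p from 0.00543 to 0.216. Leaving out any one of female brain replicate 1 (adjusted p = 0.0175 by edgeR), female cerebellum replicate 3 (0.048) or male cerebellum replicate 2 (0.0396) was enough. So was leaving out female heart replicate 2 or 3 (0.0377 and 0.0308) or female colon replicate 1 or 2 (0.0371 and 0.0368). The heart and colon libraries are outside the contrast, and without any one of these the log2 difference stayed at -0.644.

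Mog had a log2 difference of -0.39 ± 0.251 (SE, adjusted p = 0.294 by edgeR) and Mbp of -0.28 ± 0.228 (adjusted p = 0.424). Mobp stood at -0.21 ± 0.291 (adjusted p = 0.694) and Cldn11 at -0.15 ± 0.222 (adjusted p = 0.729). These 4 genes leaned towards cerebellum by less than 2 standard errors. Without male cerebellum replicate 3 the differences of Mbp and Mobp were 0.08 and 0.14, on the other side of 0, with adjusted p of 0.889 and 0.838. Opalin leaned the other way by 0.48 ± 0.255 (adjusted p = 0.193), Olig2 by 0.33 ± 0.247 (adjusted p = 0.388) and Mal by 0.24 ± 0.199 (adjusted p = 0.447). Opalin stood at 22.2 to 39.4 FPKM in brain (median 30.0) and at 12.6 to 34.6 FPKM in cerebellum (median 23.7). It passed without male cerebellum replicate 3, with a log2 difference of 0.71 and an adjusted p of 0.0447 by edgeR. Blocking the 12 neural libraries by the first digit of the 2-digit number in their description gave 0.60 (adjusted p = 0.0358 by edgeR). Female brain replicate 2, with a single digit, and female cerebellum replicate 3 were each alone in a block and added nothing to that difference.

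Single libraries stood apart, and they did so for the 9 genes together. Male cerebellum replicate 3 was the highest of the 12 neural libraries for 5 of the 9 genes, and male cerebellum replicate 2 the lowest for 5. On average over the 9 genes, replicate 3 lay 0.709 log2 units above the mean of its group with 9 of 9 genes above it, and replicate 2 deviated by -0.568 with 0 of 9 above. Female brain replicate 1 lay 0.382 above its group (9 of 9) and female brain replicate 2 deviated by -0.44 (0 of 9). The 32 other myelin and oligodendrocyte genes deviated the same way in these libraries, by 0.537, -0.347, 0.44 and -0.418. Markers of other cells shifted too. In each of these libraries the general neuron genes deviated in the direction of the 9 genes and the forebrain neuron genes in the opposite direction. Astrocyte genes also went with the 9 genes, by 0.119 and -0.086 in female brain replicates 1 and 2. In male cerebellum replicates 3 and 2 they deviated by 0.12 and -0.119. The cerebellar neuron and microglia genes kept to neither direction. In female brain replicate 1 the cerebellar neuron genes deviated by 0.665, the forebrain neuron genes by -0.462 and the general neuron genes by 0.162, and in female brain replicate 2 by -0.945, 0.477 and -0.18. In male cerebellum replicate 3 these lists deviated by -0.292, -0.413 and 0.4, the last with 6 of 6 genes above the group mean, and in male cerebellum replicate 2 by 0.107, 0.244 and -0.356, the last with 0 of 6 above. The microglia genes deviated by 0.29 in male cerebellum replicate 3 (7 of 7 above) and by -0.196 in replicate 2 (0 of 7), and by -0.201 and 0.22 in female brain replicates 1 and 2. The part of these marker shifts in the myelin values was not tested. The 10 precursor genes deviated by 0.004 or less in the 2 female brain libraries. In male cerebellum replicates 3 and 2 the precursor genes deviated by 0.279 and -0.197.

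**Figure D2:**
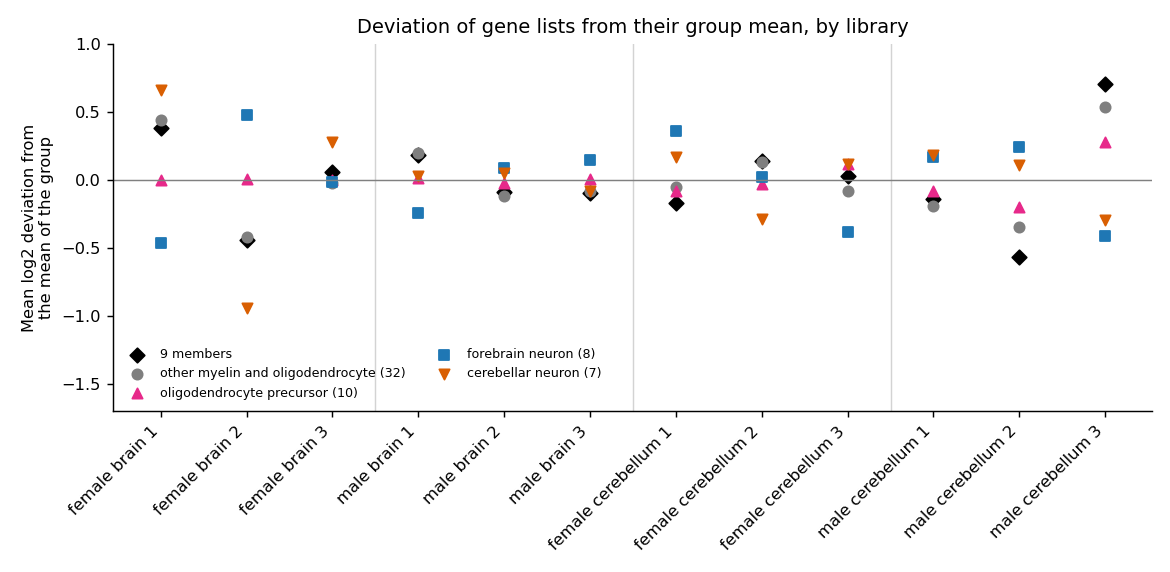
Mean log2 deviation of 5 gene lists from the mean of their group (y axis) in each of the 12 neural libraries (x axis). Black diamonds are the 9 genes, which lie between -0.568 and 0.709 and sit beside the other myelin genes (grey) in most libraries, while precursor genes (pink) stay nearer 0 in the brain libraries.

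Taking each gene relative to the other 8 in the same library removed much of this shared spread. The within-group SD of the log2 level was 0.278 to 0.588 for the 9 genes, against a median of 0.168 over 6520 loci with a mean of at least 10 FPKM. The SD of the log2 ratio to the geometric mean of the other 8 was 0.131 (Mog) to 0.264 (Mbp). On the level scale, 0 of the 9 genes separated the 6 brain from the 6 cerebellum libraries, where 18.6% of all tested loci did. On the ratio scale 3 of the 9 did so, Opalin, Olig2 and Mal, where 8.47% of all tested loci separated by their ratio to the geometric mean of the 9. That share is not a like background for 3 of 9. The ratio removes the library shift that the 9 genes share, but adds it to loci that do not share it.

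Opalin relative to the other 8 lay between -1.44 and -0.98 (log2) in brain and between -2.17 and -1.71 in cerebellum, a difference of 0.70. Olig2 lay between -3.13 and -2.60 in brain and between -3.66 and -3.34 in cerebellum, a difference of 0.51. Mal lay between 0.31 and 0.81 in brain and between -0.07 and 0.27 in cerebellum, a difference of 0.40. In each of the 6 brain libraries these 3 ratios lay above those of all 6 cerebellum libraries. At the other end, Mag and Cnp were lower relative to the others in brain by 0.60 and 0.53 on average (differences of -0.603 and -0.534), with overlapping ranges. Of the 36 pairs of genes, 9 had ratios that did not overlap between the tissues, and 7 of these 9 joined Opalin or Olig2 to Mbp, Mobp, Cnp, Mag or Mog. Over all pairs of tested loci with a mean of at least 5 FPKM in the 12 libraries, 35.4% did not overlap, so 9 of 36 is not above the background. The ratio of Cnp to Opalin was 1.47 to 2.05 (log2) in brain and 2.38 to 3.51 in cerebellum. The ratio of Mag to Olig2 was 1.80 to 2.54 in brain and 2.58 to 3.32 in cerebellum. The ratios share libraries and are given as a description, without a test.

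**Figure D3:**
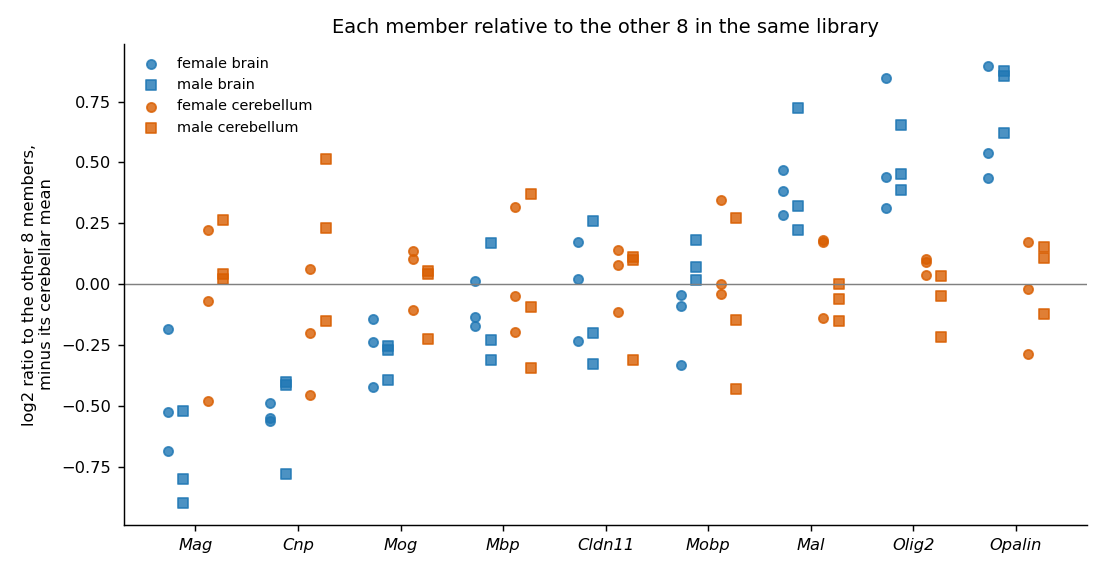
log2 ratio of each gene to the geometric mean of the other 8 in the same library, minus its mean over the cerebellum libraries (y axis), with genes ordered by the difference (x axis). Points are the 12 neural libraries (circles female, squares male, blue brain, orange cerebellum). Blue and orange separate for Mal, Olig2 and Opalin on the right and overlap for the other 6.

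Within each sex the picture rested on fewer libraries. In females 0 of the 9 genes passed between brain and cerebellum (background 10.2% of loci), with 0 at an unadjusted p under 0.05 and 0 by DESeq2. In males Cnp passed alone, at a log2 difference of -0.77 ± 0.235 (SE, adjusted p = 0.0196 by edgeR), against a background of 19.7%. No gene passed in males once male brain replicate 1, 2 or 3 or male cerebellum replicate 3 was left out, and 2 passed without male cerebellum replicate 2, without female heart replicate 2 or 3, or without female colon replicate 1 or 2. The difference between the sexes in this contrast passed for 0 of the 9 genes and for 0% of all loci by edgeR (1189 loci at an unadjusted p under 0.05, and 4 called by DESeq2). For Cnp that difference, male minus female, was -0.39 ± 0.33 (SE), and for Mag -0.57 ± 0.494.

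The direct comparison of the sexes called none of the 9 genes. All 9 had lower values in male than in female brain, with log2 differences from -0.65 (Mag) to -0.17 (Mobp), and 8 of 9 in cerebellum. The 9 genes moved together in single libraries, so these directions are not separate observations. By edgeR, 0.0368% of loci passed between the sexes in brain and 0.0301% in cerebellum. None of the 9 reached an unadjusted p under 0.05 in either tissue, and DESeq2 called 0.

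Other genes of the myelin programme were read from lists. Of 32 other myelin and oligodendrocyte genes tested, 15 were lower in brain (10.8% of all loci were), 1 was higher and 16 did not pass, with a median log2 difference of -0.61 against 0 over all loci tested and -0.21 over the 9. Klk6, a serine protease of oligodendrocytes, was lowest, at 5.74 ± 6.19 FPKM (SD, n = 6) in brain and 28.0 ± 10.6 in cerebellum, a log2 difference of -2.33 ± 0.419 (SE, adjusted p = 0.000468 by edgeR) that became -2.98 without female brain replicate 1 (adjusted p = 6.81e-06). Enpp2, which encodes the secreted lysophospholipase autotaxin, differed by -1.81 ± 0.443 (adjusted p = 0.00296), and Trf, encoding transferrin, by -1.47 ± 0.377 (adjusted p = 0.00437). Enpp2 and Trf are also made by the choroid plexus, and Ttr, a marker of that tissue, was at 967, 15.7 and 1530 FPKM in female brain, 431, 38.6 and 38.2 in male brain and 1010 to 3820 in the 6 cerebellum libraries, so the ranges of brain and cerebellum overlapped. The part of choroid plexus RNA in their values was not tested. Cntnap1, an axonal protein of the paranodal junction, was the one gene higher in brain (0.53 ± 0.173, adjusted p = 0.0236). It did not pass without female brain replicate 1, female cerebellum replicate 2, male brain replicate 2 or 3 or male cerebellum replicate 1 (adjusted p from 0.0521 to 0.0586), nor with library totals only (0.213) or no filter (0.0547).

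Of the 8 transcription factors of the lineage, 2 were lower in brain (10.8% of all loci were), Nkx2-2 (-1.09 ± 0.24, adjusted p = 0.00162 by edgeR) and Nkx6-2 (-1.05 ± 0.194, adjusted p = 0.000159), both homeodomain factors of the maturing cell. The other 6 did not pass, among them Olig1, the paralog of Olig2, at 0.32 ± 0.269 (adjusted p = 0.456), and Sox10 at -0.10 ± 0.28 (adjusted p = 0.923). Of the 10 precursor genes, 2 were higher in brain, Gpr17, a receptor of the cell that is committed to differentiate (0.86 ± 0.179, adjusted p = 0.000643), and Bcan, encoding the matrix proteoglycan brevican (0.70 ± 0.226, adjusted p = 0.0222). With 15.3% of all loci higher in brain, 2 of 10 is close to the background. Bcan did not pass without male brain replicate 3 or male cerebellum replicate 1 or 2 (adjusted p of 0.0647, 0.066 and 0.0711) or with library totals only (0.0949), which left 1 precursor gene higher. Pdgfra, the defining receptor of the precursor, did not pass (0.35 ± 0.14, adjusted p = 0.0727). Of the 12 genes of myelin lipid synthesis, 4 were lower and 3 higher in brain, against 10.8% and 15.3% of all loci. The 4 lower ones make very long or hydroxylated fatty acid chains and ceramide, with Elovl7 at a 2.0-fold lower level (adjusted p = 0.00419) and with log2 differences for Fa2h at -0.62 ± 0.219 (0.0386), Elovl1 at -0.51 ± 0.146 (0.0101) followed by Cers2 at -0.45 ± 0.12 (0.00643). The 3 higher ones belong to sterol synthesis, among them Fdft1 at 0.67 ± 0.164 (adjusted p = 0.00278) and Hmgcs1 at 0.52 ± 0.17 (0.0231). Fa2h and Hmgcs1 lost their calls without one of several libraries, with adjusted p up to 0.148 for Fa2h and 0.0796 for Hmgcs1, and Hmgcs1 also with library totals only (0.212).

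**Figure D4:**
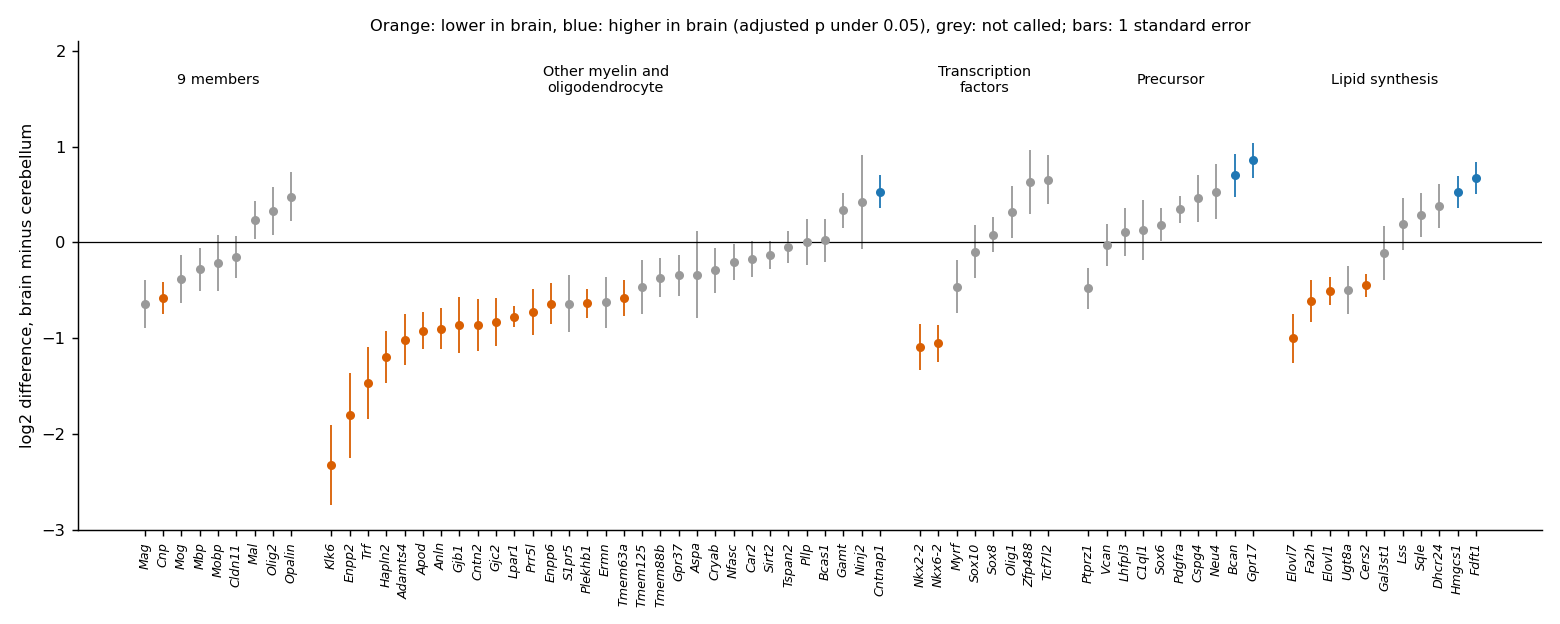
log2 difference of brain minus cerebellum (y axis) for the 9 genes and 4 lists of related genes (x axis), with bars of 1 standard error. Orange and blue mark genes that passed lower and higher in brain, and grey those that did not. Cnp is the single orange point among the 9, whereas 15 of the 32 other myelin genes are orange, and 2 genes of the lists are not drawn.

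Markers of other cell types moved between the same libraries. All 7 microglia genes were higher in brain (15.3% of all loci were), at 158 to 204 FPKM summed against 79.2 to 106 in cerebellum. Of 7 astrocyte genes 1 was higher and 3 lower (10.8% of all loci were lower), at 693 to 834 FPKM summed against 1090 to 1210. None of the 5 endothelial and 5 smooth muscle genes passed, where 26.1% of all loci did, and 0 of 5 is not far from that share. Of the genes of the Schwann cell, which makes myelin in peripheral nerve, Pmp2 was at 0 to 0.138 FPKM in brain and 0 to 0.221 in cerebellum, and Prx at 0.142 to 0.259 and 0.165 to 0.958. Of that list of 9, part of which the oligodendrocyte shares, Pmp22 was lower in brain (-0.73 ± 0.131, adjusted p = 0.000118 by edgeR) and Egr2 higher (3.53 ± 0.369, adjusted p = 4.16e-08). The other 7 did not pass, so the calls in this list are near the share over all loci. Egr2 is also an activity-induced gene of neurons.

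The second comparison placed the 9 genes outside the nervous system. All 9 were higher in the mean of brain and cerebellum than in the mean of heart, colon, ovary and testis, where 34.8% of all loci passed in that direction. The log2 difference ran from 3.36 ± 0.146 (SE) for Mal and 5.03 ± 0.131 for Cnp to 11.13 ± 0.324 for Mobp. Opalin was at 0 counts in all 3 ovary and all 3 testis libraries, and Olig2 at 0 in all 5 heart libraries. Against a floor of 3 counts per library, the lowest neural level of Opalin was at least 64.6-fold higher than in ovary and at least 102-fold higher than in testis, and that of Olig2 at least 87.5-fold higher than in heart. The tissue specificity index tau, which runs from 0 for even to 1 for single-tissue expression, was 0.772 (Cldn11) to 0.863 (Mag), with a median of 0.734 over 24678 loci of at least 1 FPKM.

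**Figure D5:**
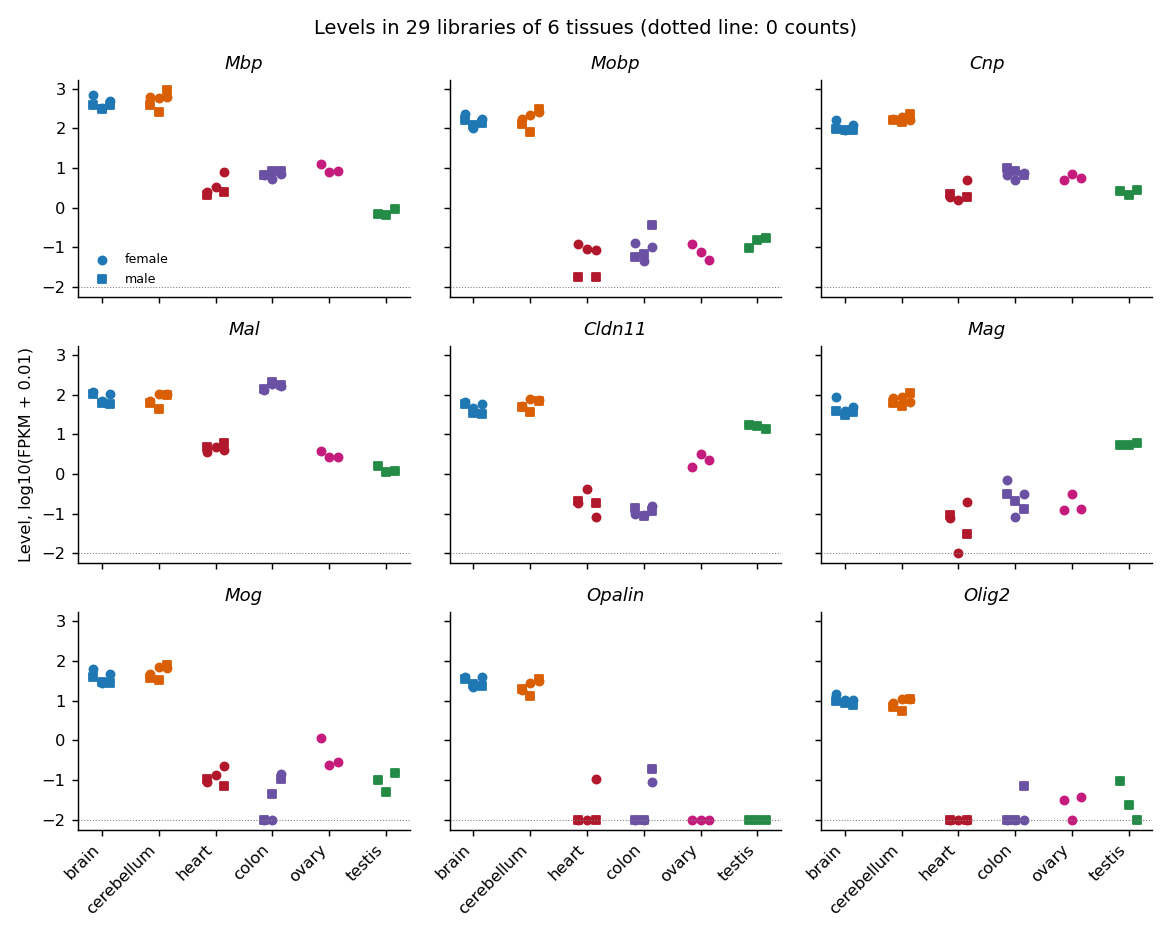
Level of each gene in all 29 libraries by tissue (y axis, log10 of FPKM + 0.01). Circles are female and squares male libraries, and the dotted line marks 0 counts. Mal is highest in colon, Cldn11 and Mag show a raised level in testis, and Mobp, Mog, Opalin and Olig2 stay below 1.2 FPKM in the 4 other tissues.

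Cldn11 had its highest level outside the nervous system in testis. In testis it stood at 17.1, 16.2 and 13.9 FPKM and in ovary at 1.51, 3.22 and 2.25 FPKM, whereas it reached 0.409 FPKM at most in the 5 heart libraries and 0.144 FPKM at most in the 6 colon libraries. The testis libraries lay below all 12 neural libraries, whose lowest was 31.5 FPKM, and the order brain, testis, ovary held without overlap. Brain exceeded testis by 1.40 ± 0.292 (log2, SE, adjusted p = 0.000133 by edgeR) and cerebellum exceeded it by 1.55 ± 0.294 (adjusted p = 4.42e-05), in comparisons where 31.2% and 30.7% of loci were higher in the neural tissue. Ovary was lower than testis by -3.37 ± 0.352 (adjusted p = 7.39e-09, 37.8% of loci lower, and -2.75 with library totals only), heart by -6.02 ± 0.367 (adjusted p = 1.54e-13, 42.2%) and colon by -7.54 ± 0.37 (adjusted p = 1.41e-15, 42.3%). Heart and colon came last, with 5 to 29 and 3 to 7 counts, and differed from each other by 1.52 ± 0.49 (adjusted p = 0.0104), a call lost without female heart replicate 2 (1.06, adjusted p = 0.064) and with library totals only (0.93, 0.0798). Of the 7 Sertoli cell list genes, Rhox5, Wt1, Gata4 and Inha stood at 14.0 to 15.4, 12.5 to 14.3, 9.24 to 11.6 and 6.94 to 8.09 FPKM in testis. Sox9 stood at 4.01 to 5.94 FPKM there, below brain (19.5 to 29.6) and cerebellum (23.7 to 43.9), and Fshr at 0.7 to 0.712 and Amh at 0.0556 to 0.342. Rhox5 was the one gene of the list whose testis libraries lay above those of every other tissue. In ovary, where granulosa cells share many of them, the 7 Sertoli list genes summed to 213 to 271 FPKM against 50.8 to 53.0 in testis. The part of these cells in the Cldn11 level was not tested.

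Mal was higher in colon than in either neural tissue. It stood at 131.0, 181.8 and 165.6 FPKM in female colon and at 139.6, 206.3 and 174.8 FPKM in male colon, above the highest neural library at 118 FPKM. Brain was lower than colon by -0.85 ± 0.2 (log2, SE, adjusted p = 0.000544 by edgeR, 29.6% of loci lower in brain) and cerebellum by -1.09 ± 0.201 (adjusted p = 3.64e-05, 28.9% of loci). Heart followed at 3.54 to 6.14 FPKM, then ovary at 2.67 to 3.87 and testis at 1.11 to 1.56, so that Mal was counted in every tissue. Heart lay below colon by -4.54 ± 0.263 (adjusted p = 1.03e-13, 28.9% of loci lower in heart), and colon lay above ovary by 6.07 ± 0.344 (adjusted p = 1.81e-13, 21.4% of loci) and above testis by 6.69 ± 0.357 (adjusted p = 7.94e-15, 29.6%). Heart and ovary ranges overlapped, although the test called heart higher by 1.53 ± 0.281 (adjusted p = 7e-05) and by 0.63 with library totals only (adjusted p = 0.0431). The difference of ovary and testis did not pass (0.62 ± 0.31, adjusted p = 0.0835), but passed with library totals only (1.27, adjusted p = 0.000684) and with no filter (0.82, adjusted p = 0.0174). Mal supplied most of the signal of the 9 genes in colon, where they took 0.038% to 0.0571% of all counts. Epithelial genes were high in the same libraries, with Epcam at 382 to 602 FPKM and Vil1 at 150 to 335 FPKM, and the part of the epithelium in the Mal level was not tested.

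Mag gave a smaller signal in testis, at 5.37, 5.47 and 6.05 FPKM (369 to 449 counts), or 9.24% of its neural mean. In ovary it stood at 0.115 to 0.299 FPKM, in colon at 0.0728 to 0.706 and in heart at 0 to 0.19, all below the 3 testis libraries. Ovary was lower than testis by -5.57 ± 0.495 (log2, SE, adjusted p = 3.77e-10 by edgeR), by -6.21 without female gonad replicate 2 and by -4.95 with library totals only. Mobp stood at 0.0868 to 0.161 FPKM and Mog at 0.0408 to 0.144 FPKM in the same testis libraries. Cd22, a protein-coding neighbour of Mag on chromosome 7 that was looked at after the data were seen, was at 0.0513 to 0.148 FPKM in testis. Of the 5 Mag models, 4 begin inside the gene, and gene counts do not tell which of them the testis reads came from.

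Mbp and Cnp were counted at low levels in every tissue. Mbp stood at 8.06 to 12.8 FPKM in ovary, 5.22 to 8.56 in colon, 2.05 to 8.14 in heart and 0.636 to 0.927 in testis, between 0.15% and 1.96% of its neural mean. Cnp stood at 5.06 to 7.07 FPKM in ovary, 4.98 to 10.2 in colon, 1.54 to 4.98 in heart and 2.07 to 2.77 in testis, between 1.75% and 5.24% of its neural mean. The upper heart values of both genes come from female heart replicate 3 alone, and the other 4 heart libraries reached 3.28 FPKM for Mbp and 2.24 for Cnp. That library stood apart in composition, with a TMM scaling factor of 1.12 against 0.604 to 0.711 in the other 4. Mobp, the other basic protein gene, stayed at 0.033% to 0.0742% of its neural mean in the same tissues. The Mbp counts include the upstream-start models, whose share the counts do not give.

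The sequence before the start of 3 of these genes is shown because they are the gene with the largest fitted log2 difference between neural and other tissues (Mobp) and the 2 genes with a strong second tissue (Cldn11 and Mal). Each is the 250 bases upstream of the RefSeq start (GRCm38.p6), 5′ to 3′ on the strand of the gene, with matches to ACAAAG or its reverse complement CTTTGT in capitals. This motif, chosen with the results known, is part of the sequence bound by HMG-box factors such as Sox10. The windows are chr9:120149492-120149741 (plus strand) for Mobp, chr3:31149670-31149919 (plus strand) for Cldn11 and chr2:127656696-127656945 (minus strand) for Mal.
Mobp: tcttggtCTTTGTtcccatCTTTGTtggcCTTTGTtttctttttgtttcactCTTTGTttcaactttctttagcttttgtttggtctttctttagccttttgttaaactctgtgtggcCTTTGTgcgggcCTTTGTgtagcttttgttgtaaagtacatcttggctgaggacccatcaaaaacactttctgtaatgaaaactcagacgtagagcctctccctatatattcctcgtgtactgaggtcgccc
Cldn11: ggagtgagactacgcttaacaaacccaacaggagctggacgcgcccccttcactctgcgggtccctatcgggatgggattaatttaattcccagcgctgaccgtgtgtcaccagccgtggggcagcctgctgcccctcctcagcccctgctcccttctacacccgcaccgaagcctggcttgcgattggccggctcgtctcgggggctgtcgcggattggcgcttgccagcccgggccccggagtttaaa
Mal: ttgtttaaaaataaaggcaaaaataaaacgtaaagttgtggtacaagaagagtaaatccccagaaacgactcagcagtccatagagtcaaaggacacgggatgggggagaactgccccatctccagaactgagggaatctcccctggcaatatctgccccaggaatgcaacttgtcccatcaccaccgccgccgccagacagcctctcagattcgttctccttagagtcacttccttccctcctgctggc
The Mobp window held 6 matches, all of them CTTTGT, in a pyrimidine-rich stretch of near repeats. Of 32851 RefSeq windows of this length, 16.5% held at least 1 match, 1.74% at least 2, and 1 window, that of Mobp itself, held as many as 6. The Cldn11 and Mal windows held none, and 4 of the 8 genes with a RefSeq window held at least 1. Of the 19 Mobp models, 16 began within 10 bases of the RefSeq start, while the RefSeq start of Mal lay 440 bases upstream of the nearest model start. CG dinucleotides numbered 4 in the Mobp window, 19 in that of Cldn11 and 7 in that of Mal, against a median of 6. These matches are letters in a window, and no binding was measured here.

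The loci with the most similar profile over the 10 groups were found by the profile distance, which compares the shares that each group takes of a summed level (0 for the same profile, 1 for none shared), among 16532 loci with at least 5 FPKM in a group. For Cldn11 these were Slain1 (0.0628), Kndc1 (0.0637), Ccdc153 (0.064), Gpr37 (0.0659) and Slc25a18 (0.0703). For Mal they were Gal3st1 (0.0503), Slc22a23 (0.0641), the locus of Acsl3 and Utp14b (0.081), Car2 (0.0817) and Tnfrsf21 (0.085). Gal3st1, which makes the sulfatide of myelin and of epithelia, stood at 3.45 FPKM in brain, 4.06 in cerebellum and 8.04 in colon. For the mean of the other 7 genes they were Ccdc153 (0.0131), Slc8a3 (0.018), Prr18 (0.0197), Ranbp3l (0.0242) and Shd (0.0251).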

How the data were processed

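The authors removed ribosomal RNA from total RNA, prepared strand-specific Illumina libraries, aligned the reads and deposited raw counts per locus over a merged annotation of Iso-seq and ENSEMBL transcripts (GRCm38.p6). The submitters' processing notes name HISAT2 2.0.5, featureCounts 1.6.3, FastQC 0.11.8 and MultiQC 0.9, and only uniquely mapped reads were kept. Whether reads were assigned by strand is not given in the sources used here.

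Counts of the 29 libraries were tested with edgeR 4.0.16 in R 4.3.3 (quasi-likelihood test, TMM scaling, filterByExpr, group means, Benjamini-Hochberg adjustment over 29911 loci, threshold 0.05), tested on simulated data first. DESeq2 1.42.0, other scalings, no filter, blocks and leaving out each library were alternatives. FPKM used library totals and combined exon lengths. Counts of 0 were set against a floor of 3 counts, which covers counting error only. Genes named from the lists were the up to 3 called genes with the largest difference in each direction. Genes whose locus is shared with another gene were left out of the lists. Members and lists were chosen with earlier results of these data known. Promoter sequences came from RefSeq (GRCm38.p6), for 8 of the 9 genes. Some list genes are counted but not reported here by name.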

Additional observations from a re-analysis of the deposited data

How the results depend on the processing

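The settings tried were other size factors, library totals only, no filter, DESeq2, 12 neural libraries only, blocks and leaving out each library. All 9 genes stayed higher in neural tissues in each of the 34 fits that held the other tissues, and the Cldn11 and Mal comparisons named among other tissues kept their calls with 2 exceptions. Cldn11 in heart against colon ranged from 1.064 to 1.823 (log2) without one library and did not pass without female heart replicate 2 or with library totals only (0.934), and Mal in ovary against testis passed with library totals only (1.266) and with no filter (0.82). Between brain and cerebellum, 2 of the 9 genes instead of 1 passed with RLE size factors, library totals only and no filter. The same count passed with the replicate block and with the 12 libraries alone. With a block on the first digit of the 2-digit number in the sample description, 3 passed and Mobp stood at 0.006 (log2). Female brain replicate 2 and female cerebellum replicate 3 were each alone in a block there and added nothing to the contrast. Leaving out one library gave 1 to 2 for both sexes, 0 to 2 in males and 0 to 1 for the other myelin genes higher in brain. In males, 2 passed with no filter and with the 12 libraries alone. Among other myelin genes, 0 were higher in brain with library totals only and with no filter. Over the fits without 1 library, Mbp ranged from -0.452 to 0.076 and Mobp from -0.384 to 0.136, the highest values coming without male cerebellum replicate 3. The longest transcript as length moved the brain level of Mbp from 431 to 610 FPKM and of Mobp from 153 to 276 FPKM. The cause of these shifts was not tested.

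With library totals only, 3281 loci were higher in brain and 4058 lower, against 4564 and 3232 with TMM scaling. Counts over all loci moved by more than 1.5 times for females with the 12 libraries alone (4972 against 3050) and without female brain replicate 2 (2016), and with DESeq2 between the sexes in brain (35 against 11) and in cerebellum (21 against 9). Leaving out male cerebellum replicate 3 or using DESeq2 called 4 loci for the difference between the sexes. Among lineage transcription factors 1 or 2 were higher in brain under 8 settings (0 as reported), and among precursor genes 4 were higher with the 12 libraries alone and 1 was lower under 4 settings. Deviations of same-numbered libraries among the brain and cerebellum groups correlated at -0.195 to 0.152, with 1 of 18 pairs over 0.1. Both ends of that range came from pairs of different sexes. Brain with cerebellum of the same sex gave 0.0356 to 0.0847 in females and -0.0298 to 0.0408 in males. Correlations this low cannot tell whether same-numbered libraries came from the same animal. The replicate block gave 2 genes and 7338 loci instead of 1 and 7796, with Mag at an adjusted p of 0.0453 by edgeR. Depth limits the low values outside neural tissue, where Mobp, Mog, Opalin and Olig2 rest on 33 counts or fewer per library. Mag rests on 20 or fewer in heart, colon and ovary.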
